A study of Arabidopsis thaliana with 34 samples.

Results

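Linker histone H1 and the heterochromatic histone mark H3K9me2 (histone H3 dimethylated at lysine 9) were set against each other in wild-type (WT) plants of *Arabidopsis thaliana*, to see where their ChIP-seq peaks coincide and where each lies alone. The members are the peaks on the 5 nuclear chromosomes in the lists labelled antiH1 in WT, with 22267 peaks in replicate 1 and 22361 in replicate 2, and antiH3K9me2 in WT, with 8286 and 6813 peaks. Together they are 59727 of the 328993 nuclear peaks in the 18 lists of the study. WT is the non-transgenic Col-0 ecotype, with 2 biological replicates for each antibody. H1 and NRPE1 libraries used to compare ZF108DMS3 with WT were made from the same chromatin samples, so these lists are not independent of each other. The material is floral tissue by the labels of the samples but seedlings, pooled at an age of 10 to 12 days, by the methods, and the peak lists cannot settle which is right. Other lists of the study served as further readouts over the same positions, with 2 libraries each: NRPE1 in *h1* and in WT, H3K9me2 in *h1*, H1 in *nrpe1* and in ZF108DMS3, and SUVH1 in *h1*. The *h1* plants are mutant in the genes H1.1 and H1.2 and keep H1.3. The *nrpe1* plants lack the largest subunit of Pol V, ZF108DMS3 plants carry a transgene that fuses DMS3 to a zinc finger, and SUVH1 was tagged with FLAG in a line made in *h1*. No H1 library of *h1* was analysed here, so that the H1 lists were not set against plants without H1.

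H1 binds the linker DNA where it enters and leaves the nucleosome and compacts chromatin. In Arabidopsis it is found over genes and transposable elements alike and is known for its enrichment in heterochromatin. H3K9me2 is written by SUVH4, SUVH5 and SUVH6, read by the DNA methyltransferases CMT2 and CMT3, and marks silent transposable elements, most of which lie in the pericentromeres. Pol V, whose largest subunit is NRPE1, transcribes targets of RNA-directed DNA methylation, a pathway that in WT acts mostly on short elements and on the edges of long ones.

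The strongest region of each class of overlap is shown here by 200 bp around the summit in the first library of its mark. Each is a single example and does not stand for its class. The letters are the forward strand of RefSeq TAIR10.1, whose nuclear chromosomes are those of TAIR10, the build of the peak lists. Capitals mark CG and CHG sites (H is A, C or T), the contexts in which plant DNA is methylated symmetrically, and in the last sequence they mark the telobox, TAGGGTTT, a motif of plant telomeres, where matches that overlap a capitalised one by a base are left in lower case.
Shared, pericentromere, chr3:13598516-13598715: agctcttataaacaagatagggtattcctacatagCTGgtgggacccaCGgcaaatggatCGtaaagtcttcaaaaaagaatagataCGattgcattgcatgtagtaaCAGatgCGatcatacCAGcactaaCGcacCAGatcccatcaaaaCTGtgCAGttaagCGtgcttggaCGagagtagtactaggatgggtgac
Shared, arm, chr2:62116-62315: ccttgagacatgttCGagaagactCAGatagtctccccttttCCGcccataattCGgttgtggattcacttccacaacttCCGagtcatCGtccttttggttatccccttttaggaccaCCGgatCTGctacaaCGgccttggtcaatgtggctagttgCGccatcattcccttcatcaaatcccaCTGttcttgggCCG
H1-alone, pericentromere, chr5:15692833-15693032: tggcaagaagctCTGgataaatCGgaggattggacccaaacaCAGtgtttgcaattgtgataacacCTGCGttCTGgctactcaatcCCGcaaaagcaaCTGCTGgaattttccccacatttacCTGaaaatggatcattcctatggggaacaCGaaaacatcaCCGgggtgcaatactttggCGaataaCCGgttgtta
H1-alone, arm, chr3:21586177-21586376: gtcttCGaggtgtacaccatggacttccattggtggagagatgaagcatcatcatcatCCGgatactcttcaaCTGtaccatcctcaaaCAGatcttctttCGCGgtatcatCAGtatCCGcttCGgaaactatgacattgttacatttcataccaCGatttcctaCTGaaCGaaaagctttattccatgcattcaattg
H3K9me2-alone, pericentromere, chr3:14205627-14205826: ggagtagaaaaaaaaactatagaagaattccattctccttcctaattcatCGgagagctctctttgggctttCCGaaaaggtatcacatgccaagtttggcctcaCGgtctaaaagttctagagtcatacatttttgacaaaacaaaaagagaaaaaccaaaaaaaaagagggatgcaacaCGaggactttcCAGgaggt
H3K9me2-alone, arm, chr2:19698044-19698243: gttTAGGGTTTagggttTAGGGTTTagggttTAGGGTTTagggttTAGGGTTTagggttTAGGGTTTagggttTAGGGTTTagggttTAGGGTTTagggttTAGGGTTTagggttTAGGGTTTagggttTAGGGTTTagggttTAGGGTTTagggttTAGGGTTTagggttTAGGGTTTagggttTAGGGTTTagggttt
The letters were not compared with known repeat families, so only the annotation around them is given. The shared pericentromeric sequence lies in a region annotated with pseudogenes near the centromere of chromosome 3. The shared arm sequence lies near the tip of chromosome 2. The H1-alone sequences lie in GER2 (AT5G39190), which encodes a germin-like protein, and in the protein-coding gene AT3G58320. The GER2 sequence holds 7 CG and 10 CHG sites, against 4 and 2 in the H3K9me2-alone sequence of the pericentromere, whose region overlaps no annotated gene. The H3K9me2-alone sequence of the arm is telomere repeat with 14 teloboxes, counted without overlap, and no CG or CHG site. Its region ends 36 bp from the end of chromosome 2.

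Peak lists hold no reads, so the depth behind each list is unknown. H1 peaks covered 14 and 15.8 Mb and had a median width of 297 and 293 bp. H3K9me2 peaks covered 13.0 and 15.5 Mb with fewer and wider peaks, of 449 and 496 bp. On the mitochondrial genome the H1 lists of WT held 0 and 0 peaks and the H3K9me2 lists 129 and 103. A span of chromosome 2 that resembles the mitochondrial genome (chr2:3186720-3509765) was covered over 10.05% and 10.25% by H1 and 94.0% and 97.0% by H3K9me2. The pericentromeric Jaccard index, the count of H3K9me2-alone regions, and the G and C share and NRPE1 difference of H3K9me2-alone bases are also given without it. Other values of H3K9me2-alone bases and genes include it unless stated.

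Both marks were concentrated in the pericentromeres, and H1 reached further into the arms. The pericentromeric intervals used here comprise 30 Mb, or 25.2% of the genome, in which 21.5% of bases lie in protein-coding genes, against 65.1% in the arms. Within them H1 covered 40.8% and 44.6% of bases and H3K9me2 42.1% and 48.9%, so that the ranges overlap (difference -2.81 percentage points, p = 0.667, exact permutation test over the 4 libraries, two-sided). Without H3K9me2 replicate 2 the sign of this difference turned (0.608). In the arms H1 covered 1.98% and 2.70% and H3K9me2 0.406% and 0.881%, that is, both H1 libraries lay above both H3K9me2 libraries. The arm difference was 1.69 percentage points, a ratio of 3.64, with p = 0.333 in the same exact test, the smallest p that 2 against 2 libraries allow. When the lists were cut to an equal number of their strongest peaks it was -0.197. Of H1 peaks, 70.8% and 63.0% were pericentromeric, against 91.2% and 86.6% of H3K9me2 peaks (p = 0.333, exact test).

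**Figure D1:**
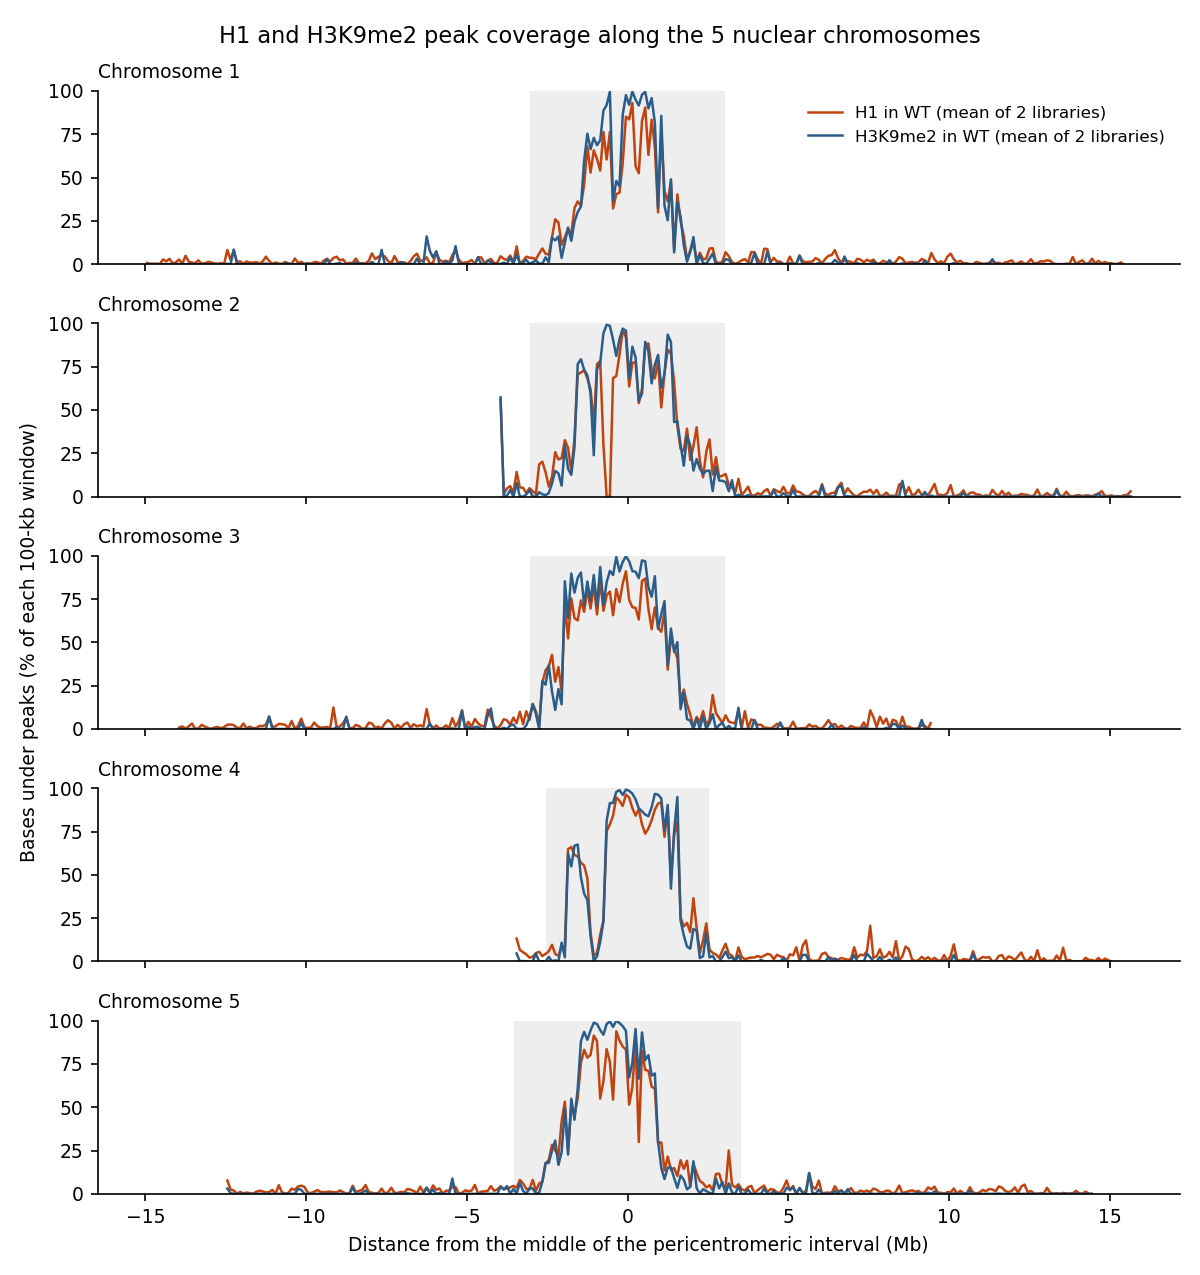
Share of bases under peaks (%) in 100-kb windows along each chromosome, against the distance from the middle of its pericentromeric interval in Mb (grey), as the mean of 2 libraries for H1 (orange) and H3K9me2 (blue). Both curves rise inside the grey intervals, H1 keeps a low level along the arms, and on chromosome 2 H1 is at 0 in a window that H3K9me2 covers over 98.7% and 99.8%.

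Across the 1193 windows of 100 kb the coverage of H1 and of H3K9me2 was correlated with Pearson's r = 0.968, and with 0.741 across the 893 arm windows. Neighbouring windows share chromatin and the mapping of repeats, so these values only describe the profile. In the arms 672 windows held no H3K9me2 base in either library, while 21 held no H1 base in either library.

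In the pericentromeres most bases of each mark lay under the other. Of H1 bases, 83.0% ± 5.59 lay under H3K9me2 peaks, and of H3K9me2 bases, 77.9% ± 3.30 lay under H1 peaks (mean and SD over the 4 pairs of 1 H1 and 1 H3K9me2 library, which share libraries). The other mark covered 42.1% to 48.9% and 40.8% to 44.6% of all pericentromeric bases. In the arms the relation was uneven, since 14.2% ± 5.57 of H1 bases lay under H3K9me2 but 51.7% ± 5.07 of H3K9me2 bases lay under H1 (n = 4 pairs), where H1 covered 1.98% to 2.70% of all arm bases. The order turned with lists of an equal number of peaks, which gave 36.4% and 25.3%.

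The Jaccard index, the bases under both marks over the bases under either, gives the same overlap in 1 value. It averaged 0.670 in the pericentromeres (0.641 to 0.707 over the 4 pairs), close below 0.727 between the H1 replicates and 0.775 between the H3K9me2 replicates. In the arms it averaged 0.122 (0.0817 to 0.164), against 0.234 and 0.372 between replicates, so that arm peaks of 1 antibody also differed more between libraries. By chromosome the pericentromeric index ran from 0.602 on chromosome 2 to 0.751 on chromosome 4, and was 0.682 in all pericentromeres without the span like the mitochondrial genome. In the arms it ran from 0.0856 on chromosome 4 to 0.211 on chromosome 2.

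**Figure D2:**
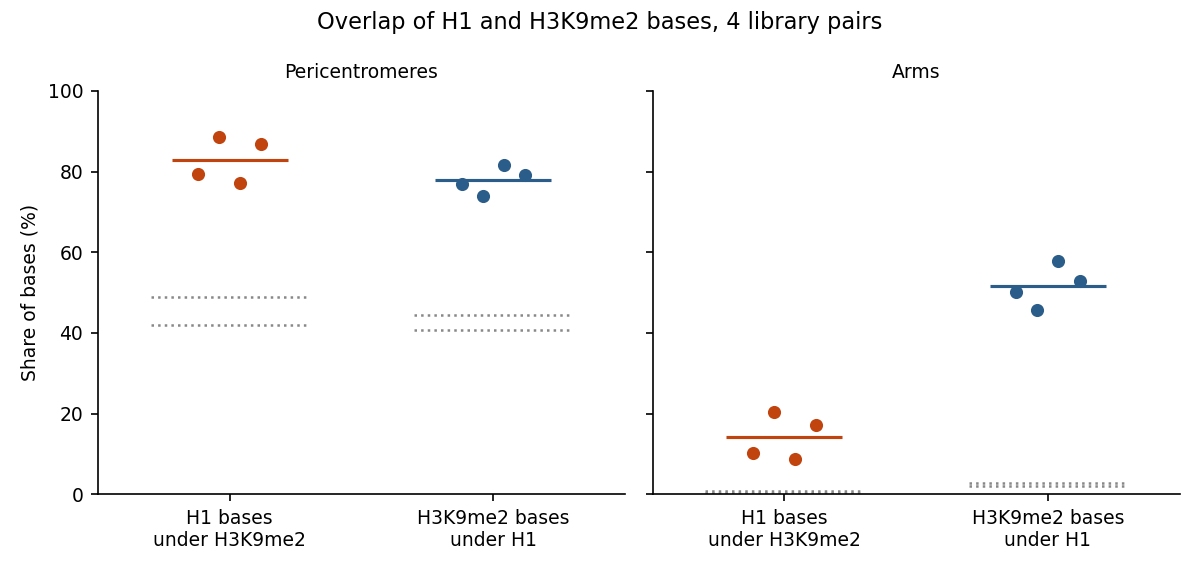
Share of H1 bases under H3K9me2 peaks (orange) and of H3K9me2 bases under H1 peaks (blue), in %, for the 4 library pairs (points) and their mean (line), in pericentromeres and arms. Dotted lines give the share of all bases of the compartment that each library of the other mark covers. The means are 83.0% and 77.9% in pericentromeres and 14.2% and 51.7% in arms.

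Peaks of the 4 lists that overlapped or were adjacent were joined into regions, and each region was called shared (peaks of all 4 lists), H1-alone (both H1 lists, neither H3K9me2 list) or H3K9me2-alone (the reverse). In the pericentromeres 1799 of 8185 regions were shared (22%), 1098 were H1-alone (13.4%) and 305 were H3K9me2-alone (3.73%). In the arms 246 of 10599 were shared (2.32%), 2219 were H1-alone (20.9%) and 41 were H3K9me2-alone (0.387%). The other 4983 and 8093 regions lacked a peak in 1 library or more, among them 2919 and 4706 arm regions with a peak only in H1 replicate 1 or only in H1 replicate 2. Shared regions were long, with a median of 2687 bp in pericentromeres and 2064 bp in arms. H1-alone regions had medians of 410.5 and 389 bp and H3K9me2-alone regions of 552 and 601 bp. Classes of bases were drawn apart from the regions, so a base of 1 mark alone can also lie inside a shared or unreplicated region. Bases under all 4 lists amounted to 8.83 Mb in pericentromeres and 0.131 Mb in arms, and H1-alone bases to 0.644 and 0.513 Mb. H3K9me2-alone bases amounted to 1.29 and 0.0886 Mb, while H3K9me2-alone regions held 0.340 and 0.0283 Mb. Of the arm bases under both H1 lists, 64.9% had no H3K9me2 peak in either library, against 5.97% in the pericentromeres.

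Counts of regions alone depend on how many peaks a list holds, since a weak peak of the other mark ends a call. With lists of an equal number of peaks, 52 pericentromeric and 52 arm regions were H1-alone and 750 and 134 were H3K9me2-alone, while with lists of equal covered length the arm counts were 798 and 21.

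Stronger peaks were more often shared. H1 peaks that overlapped an H3K9me2 peak of both libraries had a median fold enrichment, as given by the peak caller, of 3.17 and 3.16 in the pericentromeres, and those without any H3K9me2 peak had 2.41 and 2.35. In the arms these medians were 2.56 and 2.57 with H3K9me2 and 2.23 and 2.17 without. When the peaks of each list were ranked by p-value into 4 equal groups, 45.6% and 36.9% of the weakest quartile of pericentromeric H1 peaks carried H3K9me2 of both libraries, and 96.2% and 94.1% of the strongest quartile did. Even the strongest quartile of arm H1 peaks carried H3K9me2 in only 16.4% and 15.6%. Pericentromeric H3K9me2 peaks carried H1 in 54.4% and 39.2% of the weakest and 93.9% and 94.1% of the strongest quartile. Stronger peaks were also wider, with 1274 and 1561 bp in the strongest quartile of pericentromeric H1 peaks and 208 and 209 bp in the weakest, and a wider peak meets another more easily. The part of width in these shares was not tested.

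The classes lay in different annotation. Genes, exons and pseudogenes were taken from RefSeq, which files many genes of transposable elements in Arabidopsis as pseudogenes without giving their family. Of shared bases, 55.2% lay in pseudogenes in the pericentromeres, where pseudogenes make up 28.1% of all bases, and 78.8% in the arms, where they make up 2.17%. H1-alone bases of the arms lay in exons of protein-coding genes for 57.7%, against 47.1% of all arm bases, and in the 1 kb upstream of genes for 2.33%, against 15.2%. In pseudogenes lay 20.8% of them. H3K9me2-alone bases of the arms were divided between pseudogenes (56.9%), intergenic sequence (22.2%) and exons (11.1%). In the pericentromeres 18% of H1-alone bases, 11.6% of H3K9me2-alone bases and 1.89% of shared bases were exonic. Of all pericentromeric bases 14.9% were exonic, and of those free of both marks 26.9%.

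Counted by gene, both marks together were most frequent in pericentromeric pseudogenes, and in arm protein-coding genes H1 without H3K9me2 was the most frequent of the replicated calls with a mark. H1 without H3K9me2 was still more frequent among pericentromeric protein-coding genes and arm pseudogenes than among arm protein-coding genes. A gene was called H1-alone when it held bases under both H1 lists and none under either H3K9me2 list, and likewise for the other calls. Of 24260 protein-coding genes in the arms, 1240 were H1-alone (5.11%), 29 held both marks (0.12%), 17 were H3K9me2-alone (0.0701%) and 20049 were free of any peak of either mark. Of 3184 protein-coding genes in the pericentromeres, 398 held both (12.5%), 318 were H1-alone (9.99%) and 157 were H3K9me2-alone (4.93%). Of 3716 pericentromeric pseudogenes, 2880 held both (77.5%), 126 were H1-alone (3.39%) and 74 were H3K9me2-alone (1.99%). Of 1127 arm pseudogenes, 174 held both (15.4%), 112 were H1-alone (9.94%) and 4 were H3K9me2-alone (0.355%). The H1-alone genes of the arms had a median length of 2897.5 bp, against 2028 bp for those free of peaks, and longer genes offer more bases to hold a peak.

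Within arm genes of at least 1 kb (n = 20789), H1 coverage was lowest around the start and highest towards the end. It was 0.255% and 0.332% in the 250 bp upstream of the start, 0.546% and 0.766% in the first of 10 equal parts of the gene and 2.73% and 4.05% in part 8. H3K9me2 stayed at or below 0.201% in all 10 parts of these genes. In arm pseudogenes (n = 607) H1 covered 28.6% and 34.9% of part 5, against 13% and 30.7% for H3K9me2. In the 250 bp upstream of them the values were lower, with 9.38% in H1 replicate 1 and 6.44% in H3K9me2 replicate 1.

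**Figure D3:**
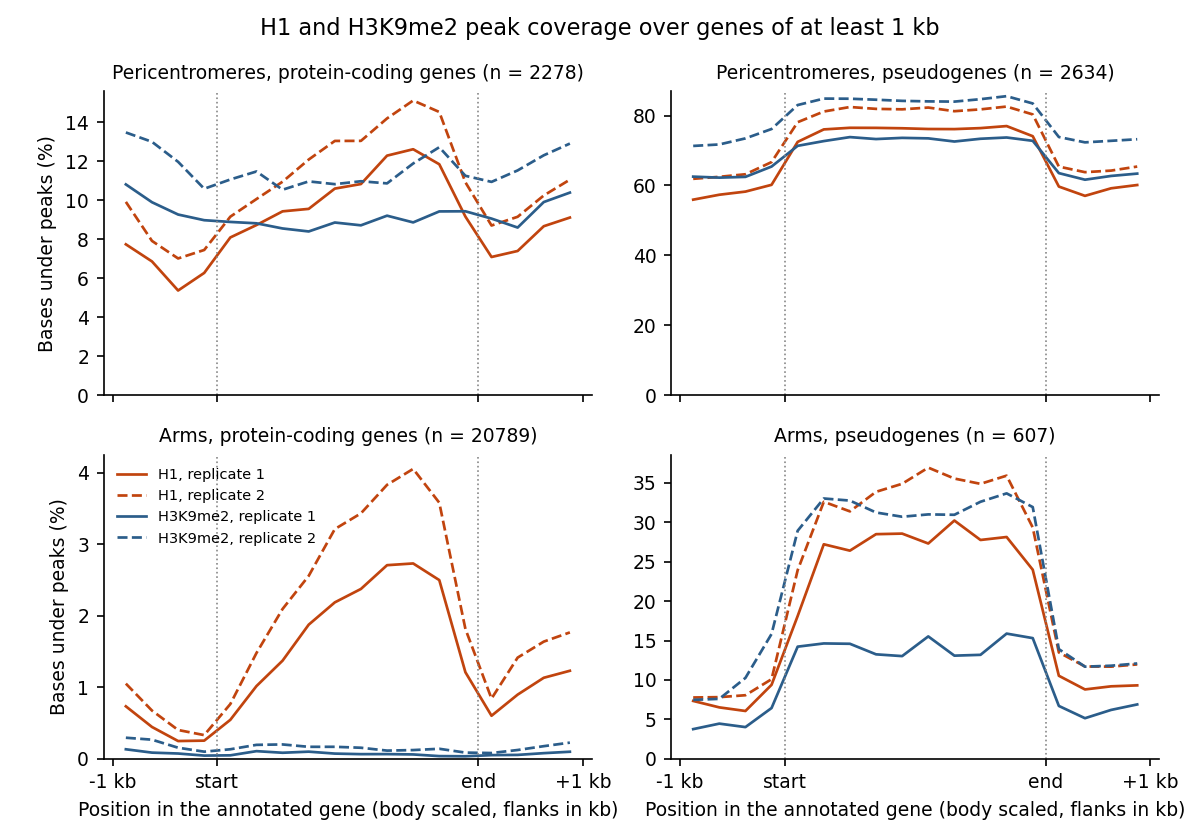
Share of bases under H1 (orange) and H3K9me2 (blue) peaks in replicate 1 (solid) and replicate 2 (dashed), in %, over genes of at least 1 kb scaled into 10 parts and over 1 kb on either side in bins of 250 bp, for protein-coding genes and pseudogenes in pericentromeres and arms. The scale of the vertical axis differs between panels. In arm protein-coding genes H1 climbs to 2.73% and 4.05% while H3K9me2 stays near 0.

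Most genes of the heterochromatin machinery held no peak of either mark, as most protein-coding genes did. In a list of 16, which holds H1.1, H1.2 and H1.3, the H3K9 methyltransferases SUVH4, SUVH5 and SUVH6, the DNA methyltransferases CMT2, CMT3 and MET1, the remodeler DDM1, the H2A.W genes HTA6, HTA7 and HTA12, MOM1, MORC6 and the H3K9me2 reader ADCP1, 13 had no base under any of the 4 lists, beside 82.6% of arm and 46.8% of pericentromeric protein-coding genes. SUVH5 was H1-alone, with 7.69% and 4.09% of the gene under H1, 57 bp under both H1 lists and 0 under H3K9me2. MOM1, a silencing factor, held H1 over 15.4% and 12.8% of the gene, but at different bases in the 2 libraries, and MET1 held H1 over 0% and 5.63%. That is 1 of 16 H1-alone, and of all 27444 protein-coding genes 5.68% are H1-alone, 1.56% hold both, 0.634% are H3K9me2-alone and 7.76% have bases under both H1 lists. In a second list of 5 genes known for silenced repeats or introns, RPP7 (AT1G58602), a resistance gene with a heterochromatic intron, held both marks, with 7.44% and 8.80% of the gene under H1 and 19.7% and 25.1% under H3K9me2. FWA, a flowering regulator silenced through repeats in its promoter, was H1-alone with 16.5% and 22.3% under H1, of which 139 bp lay under both lists. The call was made over the annotated gene, and the repeats were not examined apart. ROS1, a DNA demethylase, was H1-alone with 8.71% and 4.67%, of which 147 bp lay under both lists. SDC, an F-box gene, held H1 over 11% and 0%, and IBM1, an H3K9 demethylase gene with a methylated intron, held no peak.

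Among annotated products of arm genes, some recurred among the H1-alone genes, and these were picked after their counts were seen. Of 120 genes for Cysteine/Histidine-rich C1 domain proteins 26 were H1-alone (21.7%), of 56 genes for TIR-NBS-LRR disease resistance proteins 14 (25%), of 34 genes for TRAF-like proteins 11 (32.4%) and of 26 subtilase genes 8 (30.8%), beside 5.11% of all arm genes. Of 2118 genes for uncharacterized proteins 61 were H1-alone (2.88%). Such families often stand in tandem, so their members are not independent of each other.

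The strongest shared regions of the pericentromeres lay side by side near the centromere of chromosome 3. They were chr3:13595135-13685456, chr3:13711521-13726013 and chr3:13800469-13841140, with 18, 0 and 6 annotated genes. In the first, H1 peaks covered 76.2% and 81.9% of bases with a fold of up to 5.25 and 4.75, and H3K9me2 peaks covered 99.8% and 99.9% with a fold of up to 6.95 and 5.88. The widest shared region, chr3:13867152-14086613 with 219462 bp and 46 genes, was covered over 86.7% and 89.97% by H1 and over 98.2% and 99.8% by H3K9me2. These regions are rich in copies of themselves: 52.3% of the bases of the first and 25.5% of the widest have another copy in the same region, at 90% identity over 500 bp or more. Only uniquely mapping reads were kept upstream, and the part of this in the values was not tested. In 1 window of chromosome 4, chr4:3400001-3500000, 92.3 kb of 100 kb were shared, under 20 pseudogenes and no protein-coding gene.

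Much of what the marks share in the arms lay in 1 place. The first window of chromosome 2, chr2:1-100000, held 41.6 kb or 31.9% of all shared arm bases, with 57.3% and 55.0% of its bases under H1 and 52.1% and 62.4% under H3K9me2. The 3 strongest shared arm regions, chr2:58557-69968, chr2:28253-49744 (the widest) and chr2:13627-27951, all lie in it, over pseudogenes and, in the first, the protein-coding gene AT2G01050. The window begins with ribosomal RNA genes and 42.6% of its bases have another copy within it, against a median of 0 over arm windows and 5.05% over pericentromeric windows. Without it the arm Jaccard index was 0.104 and 238 shared arm regions remained to be counted. At the 18S rRNA gene AT2G01010 in this window H1 covered 78.0% in replicate 1 and 0% in replicate 2, and H3K9me2 covered 100% in both, so the H1 libraries disagree there.

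H1-alone regions lay in single genes and in tandem clusters. In the pericentromeres the strongest was GER2 (chr5:15692583-15693823), with a fold of 2.91 and 2.91 in the H1 libraries. AT5G39160, an RmlC-like cupin gene of the same cluster (chr5:15679185-15680603), and AT5G36550 (chr5:14377283-14377734) followed, with folds of 2.55 and 2.76 and of 3.87 and 3.803. The window around GER2, chr5:15600001-15700000, held more H1-alone bases than any other pericentromeric window (14.4 kb). Of its 22 protein-coding genes 7 were H1-alone, among them the germin-like GLP6 with 27.4% and 26.4% of the gene under H1, AT5G39150 with 93.8% and 100% and the myb-like gene AT5G39170 with 100% and 92.3%, all with 0 under H3K9me2. The neighbour AT5G39180 held H1 over 100% and 98.7% and also H3K9me2 over 14.7% and 40.2%. The widest H1-alone region, 3843 bp in AT4G02660 (chr4:1159741-1163583), was covered over 65.9% and 94.5% by H1. Pericentromeres drawn from gene density end at 15.3 Mb on chromosome 5 and begin at 1.5 Mb on chromosome 4. By them GER2, AT5G39160, the window around GER2 and AT4G02660 lie in the arms.

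In the arms the strongest H1-alone regions were in AT3G58320 (chr3:21585159-21586954, fold 3.39 and 3.93), in AT4G20700 (chr4:11099432-11100159, fold 2.50 and 2.33) and in the RNA gene AT3G00480 (chr3:10487806-10488509, fold 3.18 and 3.68). The widest was 2155 bp in AT4G36080 (chr4:17060920-17063074). AT4G20700 lies across the end of the arm window with most H1-alone bases, chr4:11000001-11100000, where 22 of 36 protein-coding genes were H1-alone. All but AT4G20520 and AT4G20700, which are annotated with reverse transcriptase-like products, belong to an array of cysteine-rich repeat secretory-like and receptor-like kinase genes from AT4G20530 to AT4G20670. AT4G20670 was covered over 98.1% and 100% by H1, AT4G20600 over 76.1% and 89.1% and AT4G20570 over 11.3% and 48.7%, all with 0 under H3K9me2. The window held 12.6 kb or 2.46% of the arm H1-alone bases, and its share of copied bases, 46.8%, is the highest of all arm windows.

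Of the H3K9me2-alone bases of the pericentromeres, 272.8 kb or 21.1% lay in the span of chromosome 2 that resembles the mitochondrial genome. In the 270.4 kb of it that match the mitochondrial genome at 90% identity or more, H1 covered 0% and 0.0913% of bases and H3K9me2 98.5% and 99.6%. The longest match runs over 50638 bp at 99.9% identity. The widest H3K9me2-alone regions have 70370 bp at chr2:3442007-3512376 and 54738 bp at chr2:3387077-3441814. Both have their midpoint in the span, by which regions were assigned to it, though the first runs past its end. The widest with its midpoint outside the span has 7.02 kb. In the window chr2:3300001-3400000 all 29 protein-coding genes were H3K9me2-alone, among them copies of genes for subunits of cytochrome c oxidase (AT2G07687 and AT2G07695) and of the mitochondrial ATPase (AT2G07698 and AT2G07707). On the mitochondrial genome itself H1 peaks covered 0 and 0 kb in WT, and H3K9me2 peaks covered 321 and 326 kb with a fold of up to 5.11 and 5.87. Mitochondria have no histones, and reads from either genome cannot be told apart where the sequences are identical. The part of organelle DNA in these calls was not tested. Without the span 300 H3K9me2-alone regions were counted in the pericentromeres.

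Outside that span the strongest H3K9me2-alone region of the pericentromeres, chr3:14205390-14206332, had a fold of 3.28 and 2.93 and lay 5474 bp beyond the 5.8S rRNA gene AT3G41979. At that gene H1 covered 100% in replicate 1 and 0% in replicate 2, while H3K9me2 covered 100% in both libraries.

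Of the 41 H3K9me2-alone regions of the arms, 14 stood in 63.7 kb of chromosome 1 (chr1:8766889-8830569), and 27 were counted without this cluster. There H1 covered 3.77% and 4.80% of bases and H3K9me2 23.9% and 39.6%, and 87.5% of the bases have another copy in the cluster. It repeats genes for a glutamine amidotransferase, an F-box protein and the lipid A enzyme LpxC. The marks were divided among them: the amidotransferase genes AT1G24807, AT1G25083 and AT1G25155 were H3K9me2-alone, with 21.5%, 40.3% and 31.6% of the gene covered in H3K9me2 replicate 1 and 51.6%, 71.6% and 50.7% in replicate 2. Another copy, AT1G24909, held H1 over 0% and 8.12% of the gene and H3K9me2 over 18.6% and 63.3%, whereas LpxC1, LpxC2, LpxC3 and LpxC4 held no peak of either mark. The strongest arm region, the telomere repeats at chr2:19698031-19698253, had a fold of 3.83 and 3.49 in WT. AT5G10340 (chr5:3253138-3253285, fold 2.79 and 2.97) and the pseudogene AT1G24967 of the cluster (chr1:8796910-8798057, fold 2.60 and 3.14) came next. The widest, 3314 bp at chr1:8809088-8812401, lies in the cluster over AT1G25083 and AT1G25097.

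H1 coverage changed gradually across the edges of H3K9me2 domains, which are merged H3K9me2 peaks that hold a peak of both libraries. In the pericentromeres H1 covered 83.5% and 87.2% of bases more than 5 kb inside, 45.3% and 52.0% of the last 250 bp inside, 28.7% and 34.2% of the first 250 bp outside, and 4.29% and 5.76% beyond 10 kb. In the arms the same distances outside gave 24.8% and 33.3% next to the edge and 1.46% and 2.08% beyond 10 kb, and H1 covered 63.0% and 69.7% at 2 to 5 kb inside. In reverse, H3K9me2 around arm H1 domains covered 8.15% and 17.4% of the last 250 bp inside and 4.00% and 9.55% of the first 250 bp outside. Wider H3K9me2 domains held H1 more often, as 47.7% of the 486 pericentromeric domains under 0.5 kb did and 99.5% of the 384 between 5 and 20 kb. In the arms this share was 50% of 72 domains under 0.5 kb and 17 of 17 between 5 and 20 kb. A wider domain meets a peak more easily. Of the bases of these arm domains, H1 covered 41.7% and 55.2% under 0.5 kb and 53.4% and 58.0% between 5 and 20 kb. In the pericentromeres it covered 37.8% and 43.3% under 0.5 kb and 77.1% and 82.8% between 5 and 20 kb.

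**Figure D4:**
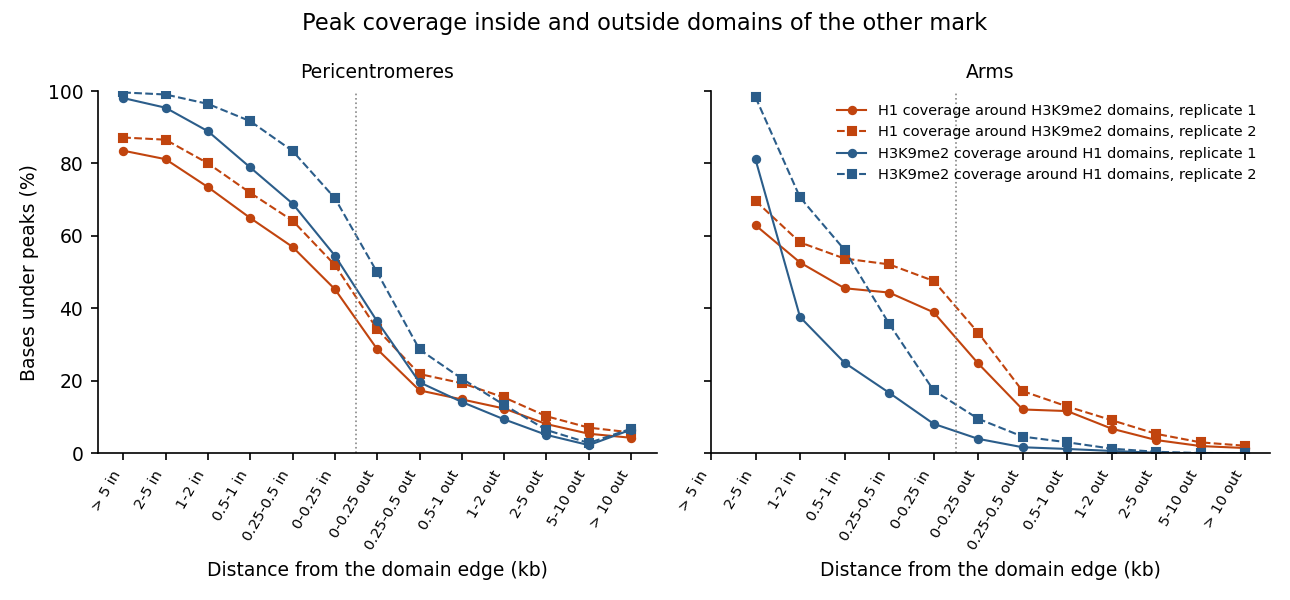
Share of bases under H1 peaks around domains of H3K9me2 (orange) and under H3K9me2 peaks around domains of H1 (blue), in %, for replicate 1 (circles) and replicate 2 (squares), by distance in kb inside (in) and outside (out) the domain edge, marked by the dotted line. In pericentromeres both fall from above 80% to below 8% across the edge, and in arms H3K9me2 is at or below 17.4% just inside H1 domains.

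Regions of 1 mark alone stood at very different distances from the other. H1-alone regions of the arms lay a median of 97.6 kb from the nearest H3K9me2 peak, 88.0% of them beyond 10 kb, while those of the pericentromeres lay 2.36 kb away. H3K9me2-alone regions lay a median of 0.684 kb from the nearest H1 peak in the pericentromeres and 5.06 kb in the arms, and 62.6% of the pericentromeric ones lay within 1 kb of H1.

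Base composition followed the same classes. Shared bases were richest in G and C, with 41.0% in pericentromeres, against 38.3% in H1-alone bases, 36.9% in H3K9me2-alone bases (34.9% outside the span like the mitochondrial genome) and 32.3% in bases free of both. In the arms these were 45.8%, 42.3%, 41.0% and 35.8%. CHG sites counted 30.2, 25.4 and 23.7 per kb in the pericentromeric classes, against 24.1 in all pericentromeric bases, and 41.5, 35.6 and 35.5 per kb in the arm classes, against 26.1. CG sites in the arms stood at 39.9 per kb in shared and 27.0 per kb in H1-alone bases, against 23.4 in all arm bases. Runs of at least 8 A (searched on both strands, so also of T) were found in 6.35% of 300-bp summit windows of arm H1-alone regions and 5.28% of shared ones, against 19.3% of all 300-bp tiles of the arms. In pericentromeric H3K9me2-alone windows they were found in 24.6%, against 16.1% of tiles. The telobox TAGGGTTT, on both strands, was held by 1.80% of arm H1-alone windows and 3.58% of arm tiles. GA repeats of at least 8 bases were held by 4.96% and 6.58%. These shares describe the letters alone.

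The other lists give readouts over the same bases that the classes did not use. H1 in *nrpe1* and ZF108DMS3 (4 libraries) covered 90.9% to 94.1% of shared, 63.8% to 70.5% of H1-alone, 14.9% to 19.5% of H3K9me2-alone and 2.48% to 3.48% of the bases free of both in the pericentromeres. In the arms it covered 81.5% to 85.2%, 50.3% to 57.1%, 21.5% to 26.7% and 0.945% to 1.16%. H3K9me2-alone bases held more H1 in these libraries than bases free of both, and less than H1-alone bases. This held in 4 of 4 libraries in either compartment, by 14.9 and 23.1 percentage points over bases free of both. An exact sign-flip permutation over the 4 libraries gave p = 0.125, the smallest it allows. It pools 2 genotypes, so it does not measure the spread of 1 condition. Of H3K9me2-alone bases, 966 kb lay within 1 kb of a WT H1 peak and 417 kb farther away. The part of this nearness was not tested. Of H3K9me2-alone regions, 8.52% to 10.5% in pericentromeres and 9.76% to 14.6% in arms met an H1 peak of these libraries.

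H3K9me2 in *h1* covered 93.2% and 94.6% of shared, 18.3% and 22.4% of H1-alone, 73.0% and 76.8% of H3K9me2-alone and 1.15% and 1.51% of the remaining pericentromeric bases. In the arms it covered 85.0% and 86.8% of shared bases and 49.1% and 47.5% of H3K9me2-alone bases, with both libraries higher over shared bases (difference 37.6 percentage points; the smallest p of the exact sign-flip permutation over 2 libraries is 0.5). In the cluster on chromosome 1 it covered 8.21% and 7.42% in *h1*, against 23.9% and 39.6% in WT. At the telomere repeats of chromosome 2 its fold was 3.74 and 4.10 in *h1* and 3.83 and 3.49 in WT. Both places were chosen by their H3K9me2 peaks in WT. The WT values are tied to that choice, so these values cannot compare the genotypes.

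NRPE1 covered more of each class that holds a mark in *h1* than in WT, in both libraries. Over shared bases of the whole genome it covered 71.9% and 64.6% in *h1* and 26.9% and 21.1% in WT, a difference of 44.3 percentage points. Over H1-alone bases it covered 57.7% and 56.1% in *h1* and 23.4% and 20.9% in WT (34.8). Over H3K9me2-alone bases it covered 43.7% and 41.6% in *h1* and 23.3% and 24.0% in WT (19.0). Without the span like the mitochondrial genome this last difference was 23.6. The groups of libraries did not overlap in these 3 classes (p = 0.333 each, exact permutation test, two-sided, the smallest p possible), while over bases free of both marks the values were 9.57% and 8.96% in *h1* and 8.28% and 9.15% in WT and overlapped. The NRPE1 lists of *h1* cover more in total, with 22.7 and 21.2 Mb, against 13.6 and 13.8 Mb in WT. With lists of equal covered length the difference over shared bases was -3.21, with 19.1% and 20.9% in *h1* and 26.9% and 19.4% in WT, and it was 21.1 over H1-alone and 4.73 over H3K9me2-alone bases.

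The compartments differed in this. In the pericentromeres NRPE1 covered 76.1% and 73.8% of H1-alone bases in *h1* and 28.4% and 27.2% in WT, and 40.3% and 38.0% of H3K9me2-alone bases in *h1* and 20.4% and 21.8% in WT. The difference between genotypes was larger over H1-alone than over H3K9me2-alone bases by 29.0 percentage points there, and by 26.4 over shared than over H3K9me2-alone bases, in every library of *h1* against every library of WT (p = 0.333 each, exact test). With lists of equal covered length the genotype difference there was -3.39 over shared, 25.1 over H1-alone and 3.35 over H3K9me2-alone bases. The contrast of shared with H3K9me2-alone thus turned its sign. These pericentromeric values include the span like the mitochondrial genome. In the arms H3K9me2-alone bases were covered over 93.8% and 93.2% in *h1* and 65.3% and 56.9% in WT, and the contrast of H1-alone with H3K9me2-alone had the opposite sign, -13.1 (p = 0.333, exact permutation test).

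Bases near the other mark were covered more than bases far from it in both genotypes over the whole genome. H1-alone bases at least 1 kb from any H3K9me2 peak (600 kb) were covered over 32.1% and 31.3% in *h1* and 14.3% and 12.1% in WT, and those within 1 kb over 85.4% and 82.8% in *h1* and 33.1% and 30.4% in WT. H3K9me2-alone bases at least 1 kb from any H1 peak and outside the span like the mitochondrial genome (148 kb) were covered over 26.8% and 25.8% in *h1* and 22.5% and 24.4% in WT, a difference of 2.89. In the pericentromeres alone these were 20.6% and 19.6% in *h1* and 18.7% and 21.6% in WT, which overlap, while in the arms (14.7 kb) they were 83.3% and 81.5% in *h1* and 57.0% and 49.4% in WT, a difference of 29.2. H3K9me2-alone bases within 1 kb of H1 had 58.5% and 55.5% in *h1* and 29.8% and 30.6% in WT over the whole genome, and the difference in the arms was 33.0 there. In the matched bases of the mitochondrial-like span NRPE1 covered 0.129% and 0.170% in *h1* and 0% and 0% in WT.

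**Figure D5:**
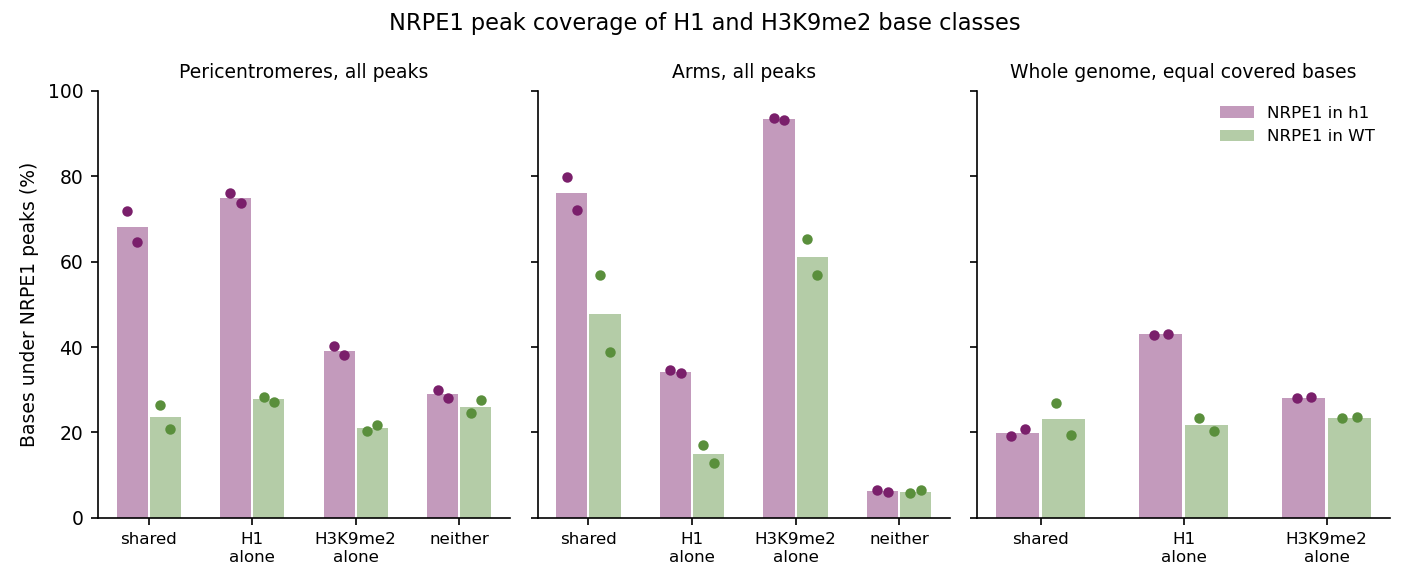
Share of bases under NRPE1 peaks (%) in *h1* (purple) and WT (green) for bases that are shared, H1-alone, H3K9me2-alone or free of both (neither), as the mean (bar) of 2 libraries (points), in pericentromeres and arms with all peaks, and in the whole genome with lists cut to equal covered length. In pericentromeres NRPE1 covers 76.1% and 73.8% of H1-alone bases in *h1* and 28.4% and 27.2% in WT, and at equal length the shared class no longer lies higher in *h1*.

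At single regions the same readout varied. Over GER2 the strongest NRPE1 peak had a fold of 7.07 and 9.53 in *h1* and 3.91 and 4.92 in WT. Over the widest shared region of chromosome 3 it had 19.7 and 26.1 in *h1* and 12.1 and 15.6 in WT, and its coverage was 58.0% and 53.6% in *h1* and 17.3% and 15.4% in WT. Over AT3G58320, AT4G02660 and AT4G36080, all H1-alone, no NRPE1 peak was listed in either genotype. In the cluster of chromosome 1 NRPE1 covered 58.9% and 56.9% in *h1* and 52.7% and 39.96% in WT.

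SUVH1, which binds methylated DNA, covered in *h1* 31.8% and 16.2% of shared, 30.0% and 19.5% of H1-alone, 14% and 13% of H3K9me2-alone and 11.9% and 12.1% of the remaining bases in the pericentromeres. In the arms it covered 45.6% and 31.1% of shared, 13.1% and 8.38% of H1-alone, 51.1% and 44.4% of H3K9me2-alone and 2.68% and 2.86% of the remaining bases. A SUVH1 library of WT was not analysed here.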

How the data were processed

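ChIP-seq peaks of H1 and H3K9me2 in WT were analysed from the files as deposited. Bowtie2 2.1.0 served the authors for alignment to TAIR10, where only unique matches with 0 mismatches were kept. Duplicates were then taken out with SAMtools, and MACS2 2.1.1 called the peaks of each library. The control and settings of peak calling are not given in the sources used here. Fold enrichment is a ratio that the authors' peak caller wrote for each peak, and the deposited −log10 p and −log10 q are likewise its values. No WT list holds a q above 0.0499. The lists hold no reads, so depth is unknown and no counting interval was computed.

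Peaks of the 5 nuclear chromosomes were turned into covered bases with Python 3.11.15, numpy 2.4.6 and pandas 2.3.3. Bases were shared when under all 4 WT lists, H1-alone when under both H1 lists and no H3K9me2 list, and H3K9me2-alone in reverse. Pericentromeres were whole-megabase intervals on each chromosome. Genes came from RefSeq TAIR10.1, and copies were sought with blastn 2.17.0 (90% identity, 500 bp). Groups of libraries were compared by exact permutation. Regions named in the text are, for each class and compartment, the 3 with the highest −log10 p, as a percentile within each list, and the widest, and gene lists were taken as fixed; products of arm genes and the windows and cluster described were chosen after values were seen. The members and lists were chosen with earlier results of these data known. The functions that merge and class peaks were tested on simulated data.

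Alternatives were stricter peaks (−log10 q from 3 upwards), lists cut to the same number of peaks or to equal covered length, merging within 500 bp, a minimum overlap of 0.5, pericentromeres from gene density, a replicate block, and leaving out each library. The span like the mitochondrial genome, 1 arm window, 1 cluster and distances of 1 kb were added after seeing the data.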

Additional observations from a re-analysis of the deposited data

Results flagged for a closer look

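Outside the nuclear chromosomes the H1 lists of WT held 0 peaks, as did the NRPE1 and SUVH1 lists, whereas the H3K9me2 lists of WT held 130 in replicate 1 and 105 in replicate 2. These were singled out because they lie in data that the comparisons leave out. On the mitochondrial genome H3K9me2 had 146 and 144 peaks in *h1* and 129 and 103 in WT. On the chloroplast genome it had 141 and 115 peaks in *h1* and 1 and 2 in WT, where the few peaks of WT covered 154.4 and 153.9 kb. Their part in the H3K9me2-alone class of the nucleus was not tested.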

How the results depend on the processing

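Of 179 values under other settings, 3 reversed and 44 moved beyond the spread between pairs or, for counts, by over 1.5 times. The other 132 stayed within these limits or, for differences, kept their sign, which does not mean their size. No p-value entered these labels. Stricter peaks (−log10 q from 3 upwards) gave 1152 H1-alone and 27 H3K9me2-alone arm regions. An equal number of peaks per list gave a pericentromeric Jaccard index of 0.612, with 90.2% of H1 bases under H3K9me2 and 65.9% of H3K9me2 bases under H1. In the arms it gave 36.4% and 25.3%, and the arm difference in coverage reversed (-0.197). It counted 1095 shared, 52 H1-alone and 750 H3K9me2-alone pericentromeric regions, and 81, 52 and 134 in the arms. Equal covered length gave 45.2% of arm H3K9me2 bases under H1. It counted 1032 shared and 70 H3K9me2-alone pericentromeric regions, and 104 shared, 798 H1-alone and 21 H3K9me2-alone arm regions. It reversed the NRPE1 difference over shared bases (-3.21) and brought it to 21.1 over H1-alone and 4.73 over H3K9me2-alone bases, against 34.8 and 19.0 with all peaks. With bases at least 1 kb from the other mark these were 18.5 and 1.02. The pericentromeric difference in coverage was -12.2 with an equal number of peaks, and the arm difference 1.08 with stricter peaks and 0.885 with equal covered length. Merging within 500 bp gave 793, 617 and 107 pericentromeric regions, and 153 shared and 26 H3K9me2-alone arm regions. An overlap of 0.5 counts stretches and not merged regions, with 11953, 5669 and 2391 in pericentromeres and 400, 3487 and 348 in arms. Without the cluster on chromosome 1, 27 H3K9me2-alone arm regions were counted. The cause of the other shifts was not tested.

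Leaving out each library in turn gave 2085 to 2909 shared, 1270 to 3021 H1-alone and 397 to 1186 H3K9me2-alone pericentromeric regions, and 274 to 418, 2237 to 7217 and 47 to 201 arm regions. A call then needs 1 library less, so counts grow by construction. The pericentromeric difference in coverage ran from -6.23 to 0.608, turning without antiH3K9me2 replicate 2. The arm difference ran from 1.33 to 2.06. Jaccard indices ran from 0.578 to 0.620 in the genome, 0.650 to 0.691 in pericentromeres and 0.0877 to 0.157 in arms.

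The Jaccard index was 0.579 and 0.627 between H1 and H3K9me2 libraries of the same replicate number and 0.614 and 0.577 between those of different numbers. No label says that a number marks a shared sample, and 2 pairs cannot settle it. With a replicate block the Jaccard index was 0.603 in the genome, 0.674 in pericentromeres and 0.122 in arms, and no value changed direction. Pericentromeres from gene density (26.6 Mb) moved or reversed no value by the rules above. They held 916 H1-alone regions, against 1098 with whole-megabase intervals. Since depth is unknown, absence of a peak does not show absence of a mark.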
